A study of Mus musculus with 10 samples.

Results

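Erythroferrone, the product of Erfe, is examined here with 8 genes of red cell production, which makes 9 genes of the 20813 in the deposited table. The 9 were listed by symbol: Erfe, Epor, Gata1, Klf1, Alas2, Hbb-bs, Hbb-bt, Hba-a1 and Tfrc. Erfe entered because it was 1 of the 5 largest falls between the groups of this study, at rank 4 of the genes whose groups stayed apart and whose mean reached 100. Its log2 difference of -1.52 lay just past Cpt1a at -1.51 (rank 5, inside) and the next gene outside, Atp8a2, at -1.47. The other 8 were named for their part in red cell formation, to ask whether Erfe followed the erythroid content of the samples. Differences between the groups are therefore given for the 9 genes as a description, with no test. All 9 passed the filter on low values (mean of at least 10) and were in the fit over 15276 genes.

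The samples were leukemic spleens of C57BL/6 mice that carried an injected T-cell acute lymphoblastic leukemia (T-ALL) with a conditional Sirt1 allele after irradiation short of a lethal dose. The labelled Sirt1-deleted group (TMX in the titles) had tamoxifen, 3 mg per mouse in corn oil by intraperitoneal injection, and the control group (VEH) had corn oil only. Each had 5 samples, named here by the numbers in their titles, and both groups carried the conditional leukemia. The Cre driver, the animals' age and whether samples came from separate primary leukemias are not given in the sources used here, so p-values measure the spread between these samples. Tamoxifen and the genotype label coincide and cannot be told apart. The spleens were pressed to single cells and their red blood cells were lysed before RNA extraction, a step that removes mature red cells. Values are gene counts that the submitters scaled by DESeq factors (normalized counts below), and a sample's values summed to between 33660245 and 34471964. Sirt1 itself was 1873 ± 146 in the labelled Sirt1-deleted and 1810 ± 62.5 in the control samples (SD, n = 5 each). Its log2 difference of 0.05 did not pass (limma adjusted p = 0.568), so the gene level did not bear out the label. The exons that the allele loses are not given in the sources used here, and a value over the whole gene does not show them.

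Erythroferrone is a hormone that erythroblasts release when erythropoietin acts on them. Erythropoietin binds the receptor encoded by Epor, which signals through the kinase JAK2 to the transcription factor STAT5, and Erfe is a known target of that route. The hormone binds bone morphogenetic protein (BMP) ligands and thereby lowers hepcidin in the liver, which frees iron for hemoglobin. In the mouse the spleen is a main site of red cell production under stress. GATA1 and KLF1 are the factors that switch on the erythroid program, Alas2 encodes the first enzyme of erythroid heme synthesis, Hbb-bs, Hbb-bt and Hba-a1 encode the adult globin chains, and Tfrc encodes the receptor that takes up iron-loaded transferrin, also in dividing cells of other lineages.

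Erfe (ENSMUSG00000047443.14) lies on chromosome 1 from 91366430 to 91374217 on the plus strand of GRCm38 (mm10), with 8 exons in its principal transcript of 2815 bases. Its last 357 bases (91373861 to 91374217) overlap the 3' end of Ilkap, which is read from the other strand. Of the 2785 31-base words in the Erfe transcript, 327 (11.7%) also occur in Ilkap. The counting is not stated to use strand, so reads in that stretch could be shared. Ilkap was 3218 ± 96.7 in the labelled Sirt1-deleted and 2896 ± 182 in the control samples (SD, n = 5 each), a rise of 0.15 on the log2 scale (limma adjusted p = 0.0333), opposite in direction to Erfe. That call was lost in 7 of 10 fits without 1 sample. No 31-base word of Epor, Gata1, Klf1 or Tfrc occurred in another gene. Of Alas2, 15.6% were shared, mostly with Apex2 on the opposite strand. The globin genes are near-identical copies: 66.9% of Hbb-bs and 59.4% of Hbb-bt words were shared between them, and 71.4% of Hba-a1 words were shared, mostly with Hba-a2. Reads can be divided unevenly among these copies, and their single values are uncertain for that reason.

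The bases upstream of Erfe are shown beside those of 3 of the other genes whose window holds a GATA motif, Epor, Klf1 and Alas2, and of 1 whose window holds none, Hbb-bt. They were chosen after the matches were seen. They come from the RefSeq promoter table (GRCm38.p6), run 5' to 3' on the gene's strand, and stop at the first base that GENCODE M21 places in the gene. Capitals mark AGATAA on either strand, or a variant of it that begins with T, ends with G or does both, which are forms of the site that GATA factors bind.
Erfe, chr1:91366180-91366429, plus strand: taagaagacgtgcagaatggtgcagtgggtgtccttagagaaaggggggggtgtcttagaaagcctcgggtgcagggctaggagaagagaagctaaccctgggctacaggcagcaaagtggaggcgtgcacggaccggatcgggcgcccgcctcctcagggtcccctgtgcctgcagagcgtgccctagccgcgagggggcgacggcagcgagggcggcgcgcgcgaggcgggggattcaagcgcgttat
Epor, chr9:21963577-21963826, minus strand: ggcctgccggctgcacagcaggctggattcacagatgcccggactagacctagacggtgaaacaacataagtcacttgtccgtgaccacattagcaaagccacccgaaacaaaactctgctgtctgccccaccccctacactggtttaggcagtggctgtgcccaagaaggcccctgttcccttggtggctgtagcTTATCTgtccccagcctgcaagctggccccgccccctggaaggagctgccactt
Klf1, chr8:84901732-84901927, plus strand: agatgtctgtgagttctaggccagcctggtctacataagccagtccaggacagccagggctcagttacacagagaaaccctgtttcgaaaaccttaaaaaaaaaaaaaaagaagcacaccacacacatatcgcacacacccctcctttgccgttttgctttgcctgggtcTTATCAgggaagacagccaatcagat
Alas2, chrX:150547167-150547374, plus strand: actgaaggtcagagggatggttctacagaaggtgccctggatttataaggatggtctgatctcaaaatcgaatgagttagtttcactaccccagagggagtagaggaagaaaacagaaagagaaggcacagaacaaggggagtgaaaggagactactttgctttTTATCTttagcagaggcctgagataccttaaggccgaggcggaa
Hbb-bt, chr7:103813997-103814173, minus strand: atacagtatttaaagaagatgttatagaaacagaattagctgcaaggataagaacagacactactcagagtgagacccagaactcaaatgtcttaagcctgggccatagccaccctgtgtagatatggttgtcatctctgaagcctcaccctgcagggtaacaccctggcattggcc
Over the full windows of 250 bases, 1 match each was found in Epor, Klf1 and Alas2, at 54, 80 and 86 bases before the RefSeq start, and 1 each in Hbb-bs and Hba-a1. The windows of Gata1, Hbb-bt and Tfrc held 0, as did that of Erfe, so Erfe shared this count with 3 of the 8 other genes. Of 32851 promoter windows of 250 bases, 26.5% held at least 1 such match. The letters CACCC, the core of the KLF1 site, occurred 3 times in the Erfe window, 2 times in Epor, 1 time in Klf1 and 3 times in Alas2 and in Hbb-bt (either strand, full windows of 250 bases), and in 52.0% of all windows. The STAT form TTCNNNGAA was in none of these windows and in 7.0% of all. None of the 3 forms contains another. A match is a description of these letters, and a missing match says only that they are not in the window.

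Erfe was low in every labelled Sirt1-deleted sample. Its normalized counts were 79.3, 45.7, 82.2, 101 and 155 in labelled Sirt1-deleted replicates 7, 8, 10, 11 and 12. Controls 2, 3, 4, 5 and 6 held 293, 185, 272, 204 and 311. The highest labelled Sirt1-deleted value, that of replicate 12, was below the lowest control, replicate 3, so the groups did not overlap. The means were 92.8 ± 40.3 and 253 ± 55.3 (SD, n = 5 each), so that the labelled Sirt1-deleted mean was 36.7% of the control mean. The log2 difference was -1.52 (SE 0.27, 95% interval -2.10 to -0.93). Leaving out 1 sample at a time moved it between -1.73 and -1.29. Within the labelled Sirt1-deleted group Erfe spanned 3.40-fold and within controls 1.68-fold.

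**Figure D1:**
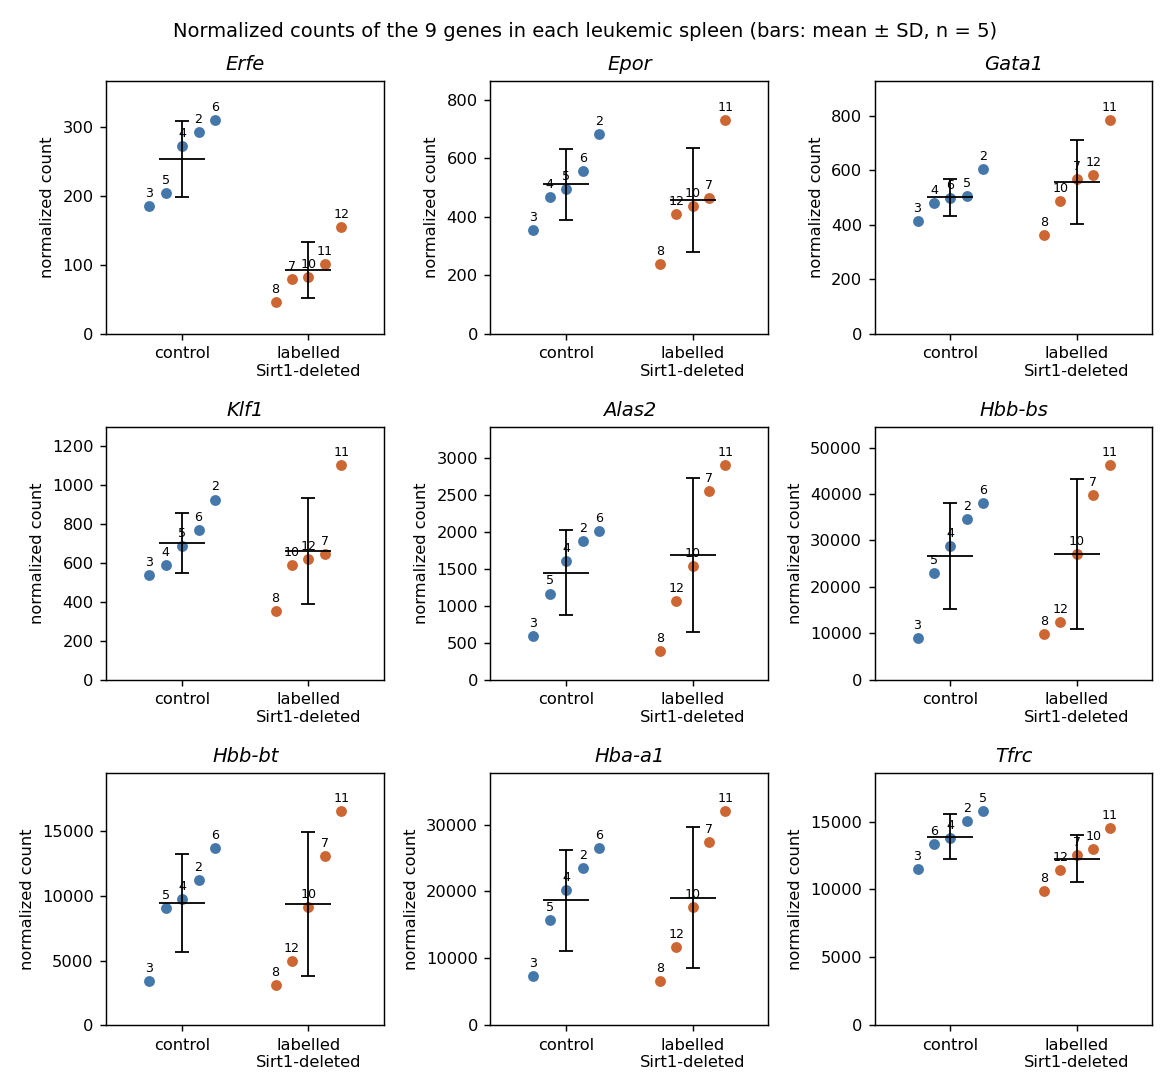
Normalized counts (vertical axes, linear from 0) of the 9 genes in each of the 10 samples, grouped as control (blue) and labelled Sirt1-deleted (orange). Numbers are the replicate numbers of the titles, samples are sorted by value within a group, and black bars are the mean ± SD of 5 samples. Erfe is the only panel of the 9 in which the groups do not overlap (155 at most against 185 at least).

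The receptor and the transcription factors of the erythroid program overlapped between the groups. Epor measured 465, 239, 435, 732 and 410 in labelled Sirt1-deleted replicates 7, 8, 10, 11 and 12, and 681, 354, 466, 493 and 556 in controls 2 to 6. Replicate 8 was below all controls and replicate 11 above all of them. The log2 difference of Epor was -0.22 (95% interval -0.75 to 0.32).

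Gata1 measured 567, 362, 488, 785 and 583 in the labelled Sirt1-deleted replicates in the same order, and 603, 415, 478, 505 and 498 in controls 2 to 6. Again replicate 8 was the lowest and replicate 11 the highest of all 10 samples. Its log2 difference was 0.12 (95% interval -0.25 to 0.49). Klf1 measured 648, 355, 588, 1102 and 623 against 926, 538, 591, 689 and 769. The same samples, 8 and 11, formed its extremes, and its log2 difference was -0.15 (95% interval -0.67 to 0.37).

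Hemoglobin genes varied more between samples of a group than between the groups. Alas2 measured 2546, 381, 1535, 2895 and 1060 in the labelled Sirt1-deleted replicates 7, 8, 10, 11 and 12, and 1867, 591, 1598, 1163 and 2007 in controls 2 to 6. This is a span of 7.60-fold within the former group and 3.39-fold within the latter. Its log2 difference was 0.03 (95% interval -1.03 to 1.09), an interval that reaches about a doubling in each direction.

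Hbb-bs ranged from 9743 (replicate 8) through a median of 27149 to 46189 (replicate 11) in the labelled Sirt1-deleted samples. In controls it ranged from 9016 (replicate 3) through 28780 to 38174 (replicate 6). Hbb-bt ranged from 3111 to 16558 and from 3433 to 13681. Hba-a1 ranged from 6625 to 31992 and from 7309 to 26475. Their log2 differences were -0.08, -0.12 and -0.05, with SE of 0.46, 0.45 and 0.42. Because the copies share reads, the 4 adult globins, Hba-a2 included, were also summed. The sum was 77203 ± 44587 in the labelled Sirt1-deleted and 74410 ± 31097 in the control samples (SD, n = 5 each), or between 0.0777% and 0.381% of a sample's total. The low globin samples were labelled Sirt1-deleted replicates 8 and 12 and control 3, at 27030, 41081 and 26266.

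Tfrc varied least. It measured 12548, 9879, 12994, 14489 and 11402 in labelled Sirt1-deleted replicates 7, 8, 10, 11 and 12, and 15017, 11494, 13811, 15759 and 13311 in controls 2 to 6. Replicates 8 and 12 were below all controls, and the remaining 3 lay within the control range. The log2 difference was -0.18 (95% interval -0.40 to 0.04).

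Leaving out 1 sample turned the sign of the differences of Gata1, Klf1, Alas2, Hbb-bs, Hbb-bt and Hba-a1, and not those of Erfe, Epor and Tfrc.

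Of the 9 genes, 1, Erfe, had an adjusted p under 0.05 in the limma fit over all genes, in which 36.1% of genes did. It was also the 1 gene of 9 without overlap as lower, against 12.9% of all genes as lower and 24% in either direction. Since the gene was chosen from this contrast, nothing is read from either count. Divided by the length of the principal transcript, the levels in controls fell in the order Hbb-bs (42557 normalized counts per kb), Hba-a1 (26692), Hbb-bt (13430), Tfrc (2838), Alas2 (710), Klf1 (459), Epor (290), Gata1 (263) and Erfe (89.9). Control ranges overlapped between each pair of neighbours in this order except Hbb-bt and Tfrc, Tfrc and Alas2, and Gata1 and Erfe. In the labelled Sirt1-deleted samples Gata1 (293 per kb) stood above Epor (259), also with overlapping ranges, and Erfe was again last at 33.0.

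Erythroid content was measured without the 9 genes. The erythroblast score was the mean log2(value + 1) of 13 other genes that mark erythroblasts and red cells, among them Slc4a1 (the band 3 anion exchanger), Rhag, Epb42 and Hemgn. The listed gene Ahsp, the alpha globin chaperone, was not analysed here. Scores were 9.55, 8.27, 9.65, 10.32 and 9.09 in labelled Sirt1-deleted replicates 7, 8, 10, 11 and 12, and 10.32, 9.05, 9.84, 9.88 and 10.15 in controls 2 to 6. The groups overlapped, with means of 9.38 ± 0.756 and 9.85 ± 0.489 (SD, n = 5 each). In bulk RNA, fewer erythroblasts and less RNA per erythroblast cannot be told apart.

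A model with the group and this score as terms was fitted to all genes, so that the slope is taken between samples of the same group. A slope of 1 means that a gene doubles when the score rises by 1 log2 unit. All 8 genes other than Erfe had positive slopes that passed (limma, Benjamini-Hochberg adjusted over 15276 genes), where 1.01% of all genes passed in either direction. Alas2 had the steepest slope, 1.45 (95% interval 1.12 to 1.77, limma adjusted p = 1.50e-04). The globin genes followed with 1.34 for Hbb-bs (limma adjusted p = 5.18e-04), 1.33 for Hbb-bt (1.13e-04) and 1.24 for Hba-a1 (1.55e-04). Epor had a slope of 0.72 (0.57 to 0.88, limma adjusted p = 1.38e-04) and Klf1 of 0.67 (0.47 to 0.88, limma adjusted p = 0.00173). Gata1 was at 0.44 (0.25 to 0.63, limma adjusted p = 0.0268) and Tfrc at 0.27 (0.17 to 0.38, limma adjusted p = 0.0132). The number of the 8 that passed was 5 without labelled Sirt1-deleted replicate 8, the sample with the lowest score, where Gata1, Klf1 and Tfrc did not pass. The Gata1 call was lost in 5 of 10 fits without 1 sample (labelled Sirt1-deleted replicates 8 and 11, controls 2, 3 and 5) and the Tfrc call in 3 (replicates 8 and 11, control 3), and both were lost without the intensity trend.

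Erfe had a positive slope of 0.45 that did not pass (95% interval 0.01 to 0.89, limma adjusted p = 0.575 over all genes). Its unadjusted value was 0.0451, and 8.54% of all genes lay under 0.05 without adjustment. The estimate rested on single samples. Without labelled Sirt1-deleted replicate 12, which had the highest Erfe and the second lowest score of its group, the slope was 0.56 and passed (limma adjusted p = 0.0264). Without labelled Sirt1-deleted replicate 8 it was 0.13 (limma adjusted p = 0.846). The interval of Erfe overlapped those of Epor, Klf1, Gata1 and Tfrc, and it lay below those of Alas2 and the 3 globin genes. The differences between slopes were not tested.

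**Figure D2:**
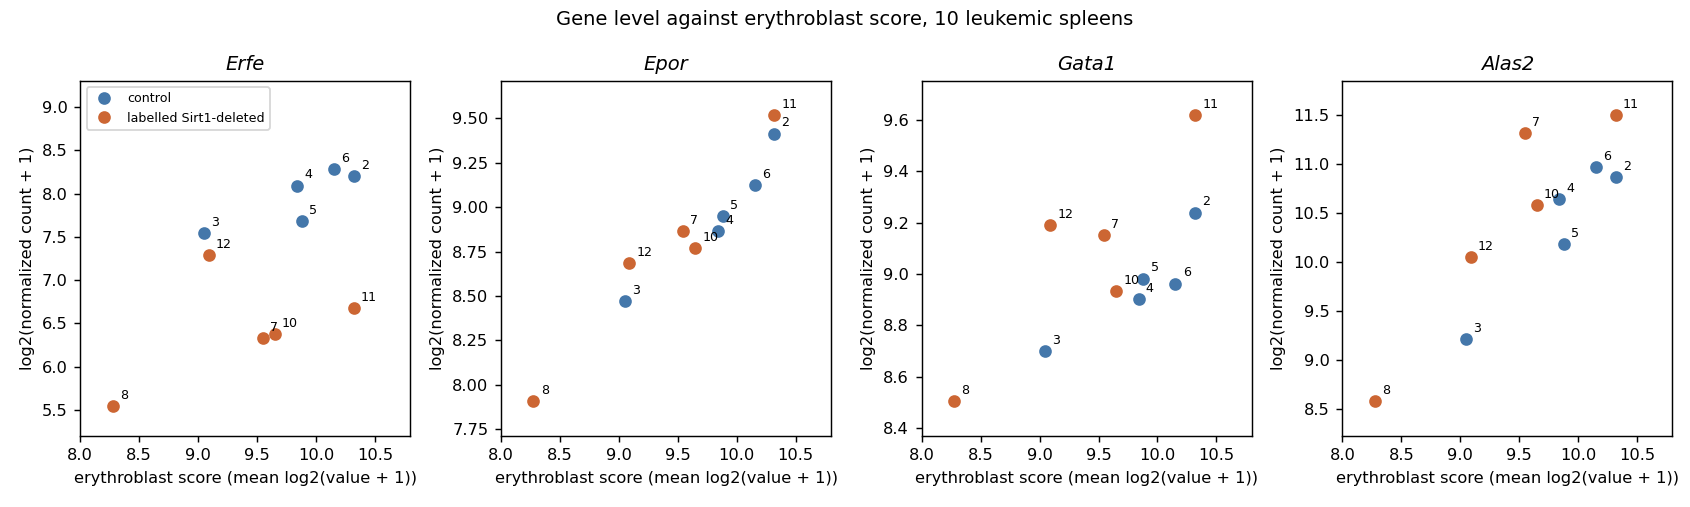
Log2(normalized count + 1) of Erfe, Epor, Gata1 and Alas2 (vertical axes) against the erythroblast score (horizontal axes, mean log2(value + 1) of 13 genes) in 10 samples, with replicate numbers. Controls are blue and labelled Sirt1-deleted samples orange. For Epor the groups share 1 band, whereas for Erfe labelled Sirt1-deleted samples lie below controls of like score, as replicate 11 (score 10.32, 101 counts) does against control 2 (score 10.32, 293 counts).

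Samples of like score can be set side by side. Control 2 and labelled Sirt1-deleted replicate 11 both had a score of 10.32, with 293 and 101 normalized counts of Erfe. Control 3 and labelled Sirt1-deleted replicate 12, at scores of 9.05 and 9.09, were closer, with 185 and 155. At equal score the fitted log2 difference of Erfe was -1.30 (SE 0.25, 95% interval -1.85 to -0.76), against -1.52 without the score. It stayed between -1.50 and -1.18 when 1 sample was left out. As a share of Epor, Erfe was 13.9% to 37.9% in the labelled Sirt1-deleted and 41.4% to 58.4% in the control samples. As a share of Gata1 it was 12.6% to 26.6% and 40.5% to 62.4%, and as a share of Klf1 9.20% to 24.9% and 29.6% to 46.0%. None of these 3 ratios overlapped between the groups. That to Alas2 came close, at 3.11% to 14.6% and 15.5% to 31.3%. The ratio of Erfe to Tfrc did overlap, at 0.462% to 1.36% and 1.30% to 2.33%. Erfe was chosen because its own values stayed apart in this contrast, so nothing is read from the separation of these ratios.

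At equal score the estimates of the other genes moved upward. Alas2 stood at 0.71 (95% interval 0.32 to 1.11), Hbb-bs at 0.56 (0.13 to 0.98), Hba-a1 at 0.53 (0.19 to 0.88), Hbb-bt at 0.51 (0.15 to 0.86) and Gata1 at 0.33 (0.10 to 0.56). The intervals of Epor (0.13, -0.07 to 0.32), Klf1 (0.17, -0.08 to 0.42) and Tfrc (-0.05, -0.18 to 0.08) included 0. These are descriptions of the same contrast. The score genes themselves had a median log2 difference of -0.47, and values at equal score are relative to it. Slopes were also allowed to differ between the groups, a fit added after seeing the data. The difference in slope for Erfe was -0.15 (SE 0.46, limma adjusted p = 1.00). Of 15276 genes 0 had a slope that differed at an adjusted p under 0.05 in limma, and 314 (2.06%) did without adjustment.

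**Figure D3:**
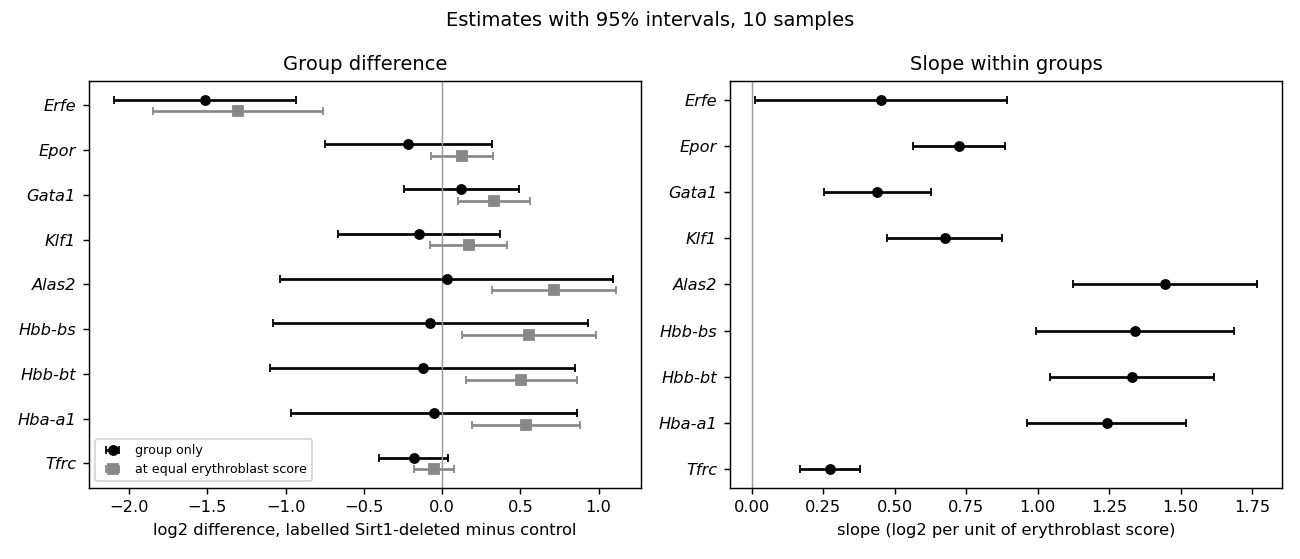
Left, log2 difference of each of the 9 genes (labelled Sirt1-deleted minus control) from the fit with group only (black circles) and at equal erythroblast score (grey squares). Right, slope on the erythroblast score within groups. Bars are 95% intervals from limma over 10 samples. Erfe lies at -1.52 and -1.30 on the left, and on the right its interval of 0.01 to 0.89 is the widest but does not reach those of Alas2, Hbb-bs, Hbb-bt and Hba-a1.

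The genes with a pattern most like Erfe were sought in the whole table. Likeness was Pearson's r of log2(value + 1) with Erfe over the 10 samples, among 10751 genes with a mean of at least 100. Erfe was chosen from the group contrast, and that contrast enters r over the 10 samples. Genes high on this measure are thus not independent of that choice. Deviations from the group means leave the contrast out. Over the 10 samples, the contrast included, the 5 highest were Atp1b2 (0.97), Slamf6 (0.95), Ppard (0.94), Zbtb8a (0.93) and Rpl10a (0.93). Atp1b2 encodes a sodium pump subunit and Slamf6 a lymphocyte surface receptor, and they were lower in the labelled Sirt1-deleted samples by log2 differences of -0.65 and -0.46. By deviations from the group means the 5 highest were Kifc1 (0.94), Exoc1 (0.93), Troap (0.91), Ggct (0.91) and Mfn1 (0.91). On the second measure Gata1 was at rank 130 (r = 0.70), Epor at rank 269 (0.64), Klf1 at rank 277 (0.64) and Alas2 at rank 359 (0.60). Some genes of the 12 lists described below stood nearer on the measure given with them, and they are named after their ranks were seen. Abcb6, of the heme synthesis list, was at rank 12 (r = 0.86) and Fth1, the ferritin heavy chain, at rank 31 (0.79) by deviations. Over the 10 samples Podxl was at rank 21 (0.90), Bnip3l at rank 24 (0.89) and Ireb2 at rank 30 (0.88). On that measure Epor was at rank 2975, Klf1 at 3498, Alas2 at 4776 and Gata1 at 5395. By deviations Podxl was at rank 323, Bnip3l at 979 and Ireb2 at 912. These values describe 10 samples that share libraries and are given with no test.

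Of the other genes of red cells, 12 lists held 120 genes in all, 101 of which were tested. In the limma fit 10 rose and 21 fell in the labelled Sirt1-deleted samples, with a median log2 difference of -0.12 against 0.00 for all genes tested, of which 16.8% rose and 19.4% fell. Of the 21 falls, 6 were in receptor signalling and 4 in iron handling, and 0 of 18 membrane and cytoskeleton genes fell. Upper-quartile rescaling gave 15 rises and 19 falls. Without labelled Sirt1-deleted replicate 11 the count of falls was 36.

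Membrane and cytoskeleton genes of the red cell were lower in estimate but did not pass. Of 18 tested, 0 passed in limma (5 were under 0.05 without adjustment), all 18 estimates were negative and the median was -0.52. Slc4a1 was 4151 ± 2799 in the labelled Sirt1-deleted and 7788 ± 3371 in the control samples (log2 difference -1.09, limma adjusted p = 0.0997; SD, n = 5 each). Without labelled Sirt1-deleted replicate 11, the sample of highest score in its group, 11 of 18 passed as lower, and without control 3, the lowest control, 5 did. Without labelled Sirt1-deleted replicate 8, 0 passed and 14 of 18 were negative. Of the 18, 16 had slopes on the score that passed, and 9 of the 18 are in the score. The globin gene Hba-a2 had a log2 difference of 0.08 and a slope of 1.32.

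Of 12 other heme synthesis genes, Alas1 among them, 2 fell and 0 rose in limma, with 3 under 0.05 without adjustment. Cpox fell from 3870 ± 621 to 2725 ± 666 (log2 difference -0.52, limma adjusted p = 0.0205) and Fech, which inserts iron into the ring, from 2574 ± 509 to 1843 ± 482 (-0.50, limma adjusted p = 0.0380; SD, n = 5 each). The call of Cpox was lost without control 2 (then 0 of the 12 passed) and that of Fech in 7 of 10 fits without 1 sample. The other 10 tested genes did not pass, and 6 of 12 followed the score. Among erythroid transcription factors 2 of 10 fell, Zfpm1 (the GATA1 partner FOG1, -0.48, limma adjusted p = 0.00234) and Cbfa2t3 (-0.26, limma adjusted p = 0.00424). Neither followed the score. Tal1 (-0.42), Gfi1b (-0.16) and Nfe2 (0.12) did not pass. Of 7 maturation genes tested 2 fell, Bnip3l, which clears mitochondria from reticulocytes (-0.50, limma adjusted p = 4.13e-04), and Xpo7 (-0.40, limma adjusted p = 0.0271, lost in 6 of 10 fits without 1 sample). Prdx2 was the 1 of 6 red cell enzyme genes to pass, as higher (0.26, limma adjusted p = 0.0456), and its call was lost in 7 of 10 such fits.

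Of 8 tested genes that signal below the erythropoietin receptor or restrain it, 6 fell, 1 rose and Cbl did not pass (0.01). Jak2 fell from 2582 ± 268 to 1886 ± 161 (log2 difference -0.45, limma adjusted p = 0.00163). Stat5a fell from 4304 ± 266 to 3384 ± 227 (-0.35, limma adjusted p = 0.00136) and Stat5b from 6461 ± 365 to 4820 ± 235 (-0.42, limma adjusted p = 3.21e-04; SD, n = 5 each). Groups did not overlap for any of these 3 genes, where 12.9% of all genes did not overlap as lower and 24% in either direction. The negative regulators Sh2b3 (-0.35) and Ptpn6 (-0.28) and the adaptor Gab2 (-0.67) also fell, and the kinase gene Lyn rose by 0.89 (limma adjusted p = 0.00177). Slopes on the score passed for 0 of the 8. Leukemia cells and other leukocytes also express this chain. In the same samples summed T lineage markers were 142226 to 162148 against 163854 to 177945 in controls, and summed neutrophil markers 26619 to 91263 against 8282 to 11519. Of the 11 T lineage markers 7 estimates were negative and 4 positive, among the latter Cd3d (0.17, passed), so the sum does not describe each marker. The part of leukemia cells and other leukocytes in these changes was not tested.

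Known response genes of this route moved in both directions. Of 12 tested 2 fell and 3 rose. Podxl, a surface sialomucin, fell from 443 ± 47.8 to 111 ± 71.5 (log2 difference -2.27, limma adjusted p = 0.00188), without overlap. Cish, a feedback inhibitor of STAT5, fell from 151 ± 39.1 to 90.1 ± 21.3 (-0.73, limma adjusted p = 0.0278), with overlap, and its call was lost in 5 of 10 fits without 1 sample. Socs3 rose by 0.92 (limma adjusted p = 0.00764), Pim3 by 0.68 (limma adjusted p = 4.60e-04) and Socs1 by 0.49 (limma adjusted p = 0.00906). Pim1 (0.03), Socs2 (0.23), Osm (0.35) and Bcl2l1 (-0.10) did not pass. Socs1, Socs3 and Pim3 also respond to other cytokines. The cells and cytokines behind the rises and behind the falls, that of Cish included, were not tested. One gene, Bcl2l1, had a slope on the score that passed (0.35, limma adjusted p = 0.00726).

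**Figure D4:**
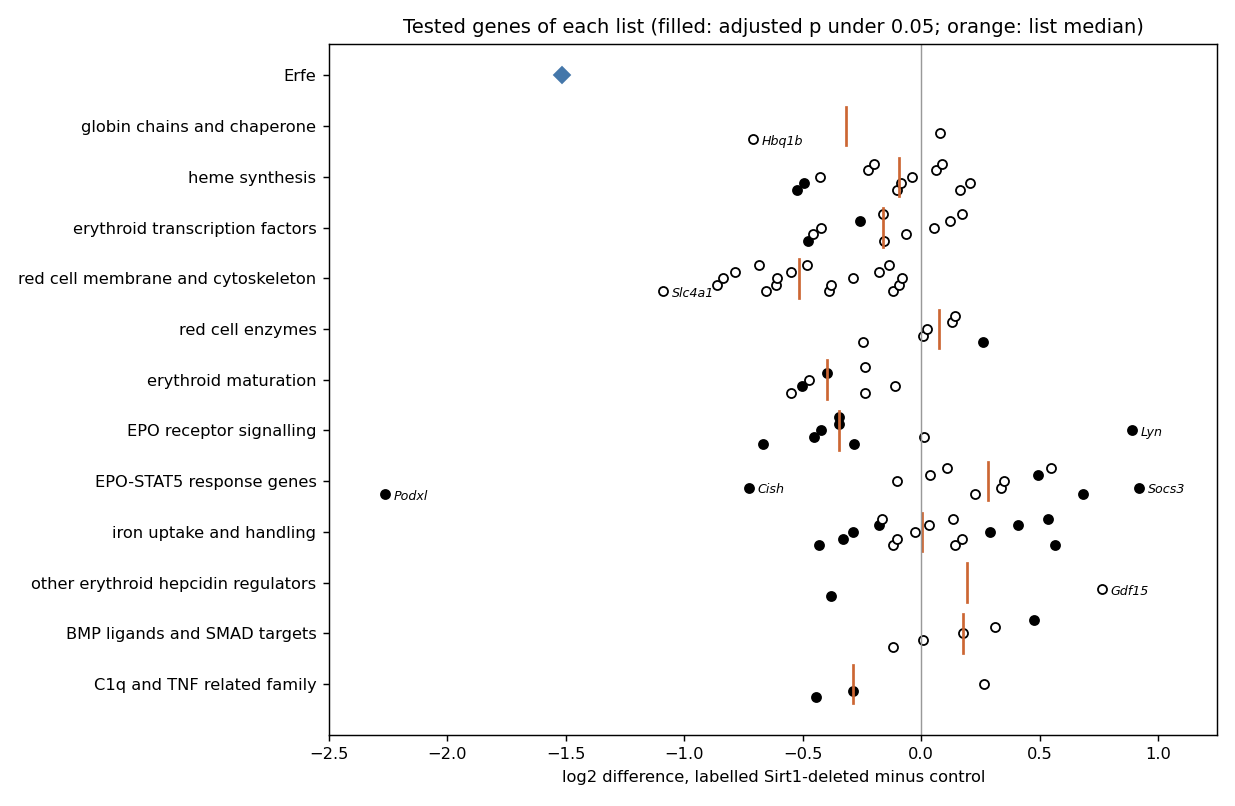
Log2 difference (labelled Sirt1-deleted minus control, horizontal axis) of each tested gene in 12 lists, with Erfe as a blue diamond at -1.52. Filled circles passed in limma (adjusted p under 0.05), open circles did not, vertical offsets only separate points, and orange bars are list medians. The 18 membrane genes are all open and left of 0, while 6 filled genes of receptor signalling lie left of 0 and Lyn lies right of it.

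Iron genes were split evenly. Of 16 tested 4 rose and 4 fell, with a median of 0.00. Slc40a1, which encodes the iron exporter ferroportin, was 986 ± 97.3 in the labelled Sirt1-deleted and 687 ± 127 in the control samples. It was higher by 0.53 on the log2 scale (limma adjusted p = 0.00489). Hmox1, which breaks down heme, was 573 ± 37.6 in the labelled Sirt1-deleted and 387 ± 37.4 in the control samples, higher by 0.57 (limma adjusted p = 7.66e-04; SD, n = 5 each). Ftl1 (ferritin light chain) rose by 0.29 and Slc25a28 by 0.41. Markers of red pulp macrophages, which recycle heme iron, moved with them: 6 of 8 rose, with a median of 0.73, and their summed level was 3145 to 4266 in the labelled Sirt1-deleted and 1904 to 2303 in the control samples. Their part in these rises was not tested. Ncoa4 (-0.43), Bach1 (-0.33), Aco1 (-0.29) and Ireb2 (-0.18) fell, of which Ireb2 lost its call under upper-quartile rescaling. Aco1 and Ireb2 encode the proteins that bind iron-responsive elements in messages such as that of Tfrc. The transferrin receptor gene Tfr2 (0.14) and the mitochondrial iron importer gene Slc25a37 (-0.17) did not pass, and Slc25a37 followed the score (slope 0.33, limma adjusted p = 7.12e-04).

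Of the other proposed erythroid regulators of hepcidin, Twsg1 fell from 1217 ± 81.9 to 939 ± 111 (log2 difference -0.38, limma adjusted p = 0.00571) and Gdf15 was near the filter, at 15.1 ± 6.75 in the labelled Sirt1-deleted and 8.34 ± 4.27 in the control samples (limma adjusted p = 0.148; SD, n = 5 each). Among BMP ligands and their SMAD targets 5 of 10 genes were tested. Id2 rose by 0.48 (limma adjusted p = 0.00286) and Bmp7 did not pass (-0.12). Within the C1q and TNF related family, to which erythroferrone belongs, 3 of 10 were tested, and C1qtnf1 (-0.44, limma adjusted p = 0.0114) and C1qtnf6 (-0.29, limma adjusted p = 0.00810) fell. The third, C1qtnf12, was higher in estimate and did not pass (0.26, limma adjusted p = 0.0695). It passed as higher under upper-quartile rescaling, under quantile normalization, and without labelled Sirt1-deleted replicate 8 or replicate 10. Next to Erfe on chromosome 1, 2 of 5 tested genes passed in limma: Ilkap, higher as given above, and Espnl, lower by -0.24 (limma adjusted p = 0.0146), a call lost under both rescalings. Scly (0.10), Hes6 (0.00) and Per2 (0.00) did not pass.

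Other cells in the spleen that can express single genes of the 9 were measured by marker lists. Neutrophil markers rose most, 10 of 11 tested, with summed levels of 26619 to 91263 in the labelled Sirt1-deleted and 8282 to 11519 in the control samples. Mast cells, eosinophils and megakaryocytes share GATA1 with erythroblasts. Eosinophil markers Ccr3 and Prg2, the 2 tested of 5 listed, rose by 1.74 and 1.31, at low levels (summed list 92.5 to 113 and 20.6 to 41.6). The call of Prg2 was lost in 4 of 10 fits without 1 sample. Prg2 was 17.4 ± 4.04 in the labelled Sirt1-deleted and 7.24 ± 4.67 in the control samples (SD, n = 5 each). Its control mean was below the filter, so it was tested only because of the group where it was higher. Among mast cell and basophil markers Hdc rose by 1.55, while Gata2 (0.13), Kit (0.07) and Cpa3 (-0.45) did not pass. Mcpt8 rose by 3.14, from 1.19 ± 1.78 to 18.9 ± 14.0 (SD, n = 5 each). Its mean over all samples only just passed the filter on low values. The groups overlapped for Mcpt8 (2.87 in labelled Sirt1-deleted replicate 7, 3.99 in control 3). Without labelled Sirt1-deleted replicate 8, 11 or 12 it fell below the filter and was not tested. Megakaryocyte and platelet markers had 0 of 6 calls in limma and summed to 243 to 344 and 273 to 474. Without adjustment 1 of the 6, Ppbp, lay under 0.05 (-1.11, limma adjusted p = 0.0607). Of 8 proliferation markers, which matter for Tfrc, 4 fell, among them Mki67 (-0.23, limma adjusted p = 0.0203), whose call was lost under upper-quartile rescaling and in 3 of 10 fits without 1 sample. The count of 4 was 1 under upper-quartile rescaling, 1 without labelled Sirt1-deleted replicate 7, 1 without control 5, and 2 without the trend, without replicate 8 or without control 2. Of 11 T lineage markers 3 fell (Cd8b1, Rag1 and Tcf7) and 1 rose (Cd3d), and upper-quartile rescaling gave 2 and 3. The summed T lineage level, given with the receptor signalling genes, did not overlap between the groups, although 4 of the 11 estimates were positive. B cell markers had 0 of 5 calls in limma, with 2 under 0.05 without adjustment. None of the 8 marker lists had a gene whose slope on the score passed. The part of these cells in the levels of the 9 genes was not tested. Across all marker lists 21 genes rose and 7 fell of 56 tested, and 26 rose and 3 fell after upper-quartile rescaling.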

How the data were processed

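RNA of 10 leukemic spleens was sequenced from strand-specific Illumina libraries. The deposited signal is a count per gene divided by DESeq normalization factors, per the file name, and is not whole. The submitters' processing notes name kallisto 0.44.0, DESeq and mm10. No role or order for them, no annotation and no filter on genes is given in the sources used here. Of low deposited values (up to 8.5 times the most frequent one), 68.3% to 74.3% lay within 0.1 of a whole number of reads. The rest did not, so whole reads were not recovered for every gene, and no count model or counting interval was used. The depth of the samples was not estimated.

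All values were analysed as log2(value + 1) for the 15276 genes with a mean of at least 10, with limma 3.58.1 in R 4.3.3 (group as term, intensity trend, Benjamini-Hochberg adjustment, threshold 0.05). A second model added the erythroblast score. Log2 differences understate changes of low genes. The script was tested on simulated data. The members, lists and tests were chosen with earlier results of these data known. Genes named are the 9, a set of defining genes, in each list up to 2 rises and 2 falls past the threshold, the neighbours of Erfe, and the 5 genes most like Erfe by each of 2 measures. Others of the lists were named after their values were seen. Some results under this rule are not reported here. Gene positions, transcript lengths and shared 31-base words came from GENCODE M21 (GRCm38), and promoters from RefSeq. The fits were repeated with other pseudocounts (0.1, 5), with a filter at a mean of 1 or 50 and with no filter. They were also repeated with values rescaled to the upper quartile or quantile-normalized, with array weights, with no trend, with other scores and without each sample.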

Additional observations from a re-analysis of the deposited data

Results flagged for a closer look

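In groups of 5 samples, the gap of the most extreme sample to its neighbour was set against the group's range. The ratio was above 0.71 in 10 of 190 sets, where 1 in 20 gives 9.5 by chance. None of the 9 genes, Sirt1 or the erythroblast score was among them. Control 3, the control with the lowest erythroblast score, was the lowest control for Cish, at 83.2 normalized counts against 160 to 183 (ratio 0.766). Stat5b was low in labelled Sirt1-deleted replicate 12, at 4414 against 4862 to 5009 in the rest of its group (0.752), and Gab2 in replicate 10, at 44.2 against 65.4 to 70.5 (0.806). Control 2 was the highest control for Sh2b3, at 2046 against 1592 to 1711 (0.740), and the lowest for the summed BMP ligands and SMAD targets, at 9424 against 11565 to 12122 (0.793). Control 5 was the highest for Gdf15, at 15.8 against 5.48 to 7.91 (0.764), and control 6 the lowest for Ccr3, at 13.8 against 24.8 to 28.5 (0.746). Control 4 was the lowest for Rag1, at 4185 against 5190 to 5443 (0.798). It was the highest for summed neutrophil markers, at 11519 against 8282 to 8842 (0.827), and for summed mast cell and basophil markers, at 458 against 378 to 397 (0.763).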

How the results depend on the processing

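No paired analysis was possible because no number in the titles occurs in both groups. The interaction fit was chosen after seeing the data, and the planned score of Hba-a2 and Ahsp used Hba-a2 only. The log2 difference of Erfe lay between -1.65 and -1.43 under the alternatives with all samples and between -1.73 and -1.29 without 1 sample, and at equal score between -1.54 and -1.25 and between -1.50 and -1.18. The Erfe slope was 0.27 to 0.56 and passed only without labelled Sirt1-deleted replicate 12 (0.133 to 0.564 without 1 sample). Of the 8 other slopes 5 passed with Hba-a2 as score, 3 in controls with the interaction term, and 5 to 8 without 1 sample. Calls among list genes numbered 28 to 38 with all samples and 26 to 45 without 1, against 31, and marker calls 24 to 35 and 22 to 33, against 28. The Sirt1 difference stayed positive and short of the threshold. Of the genes next to Erfe 1 passed without trend and 1 with quantile normalization, and 1 to 2 without 1 sample. Quantile normalization turned Gata2 (-0.124) and Socs2 (-0.0479), and upper-quartile rescaling, which moved the median of all genes to 0.081, turned Per2 (0.0777), Hba-a1 (0.0292) and Hbb-bs (0.00420). Array weights also turned Hbb-bs, to 0.00 at 2 decimals. Leaving out 1 sample turned the differences of 6 of the 9 genes: Alas2 (-0.261 to 0.487), Gata1 (-0.0131 to 0.266), Klf1 (-0.356 to 0.0512), Hbb-bs (-0.430 to 0.227), Hbb-bt (-0.454 to 0.213) and Hba-a1 (-0.359 to 0.275). It also turned estimates near 0 of other named genes that had not passed: Gfi1b (-0.340 to 0.0144), Hba-a2 (-0.281 to 0.400), Hes6 (-0.0265 to 0.0486), Nfe2 (-0.0338 to 0.215), Per2 (-0.0593 to 0.0380) and Pim1 (-0.0390 to 0.129). The causes were not tested. The upper-quartile split of all called genes was 3503 higher and 1940 lower, against 2562 and 2956.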
